A study of Mus musculus with 369 samples.

Results

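The genes described here encode hydrolases of the lysosome, their protein activators and proteins of the lysosomal membrane. They were chosen by name, with the cathepsins and the proton pump left out, and all 35 were present among the 23337 genes counted. They were read in single microglia, the resident macrophages of the brain, sorted at postnatal day 7 from whole brains of male C57BL/6J background mice. The wild-type unselected group holds live cells of wild-type mice sorted as CD45low CD11b+, and the wild-type gated group holds live wild-type cells that were also positive for the surface proteins Gpnmb and Clec7a. The knockout unselected and knockout gated groups are the same gates from Trem2 knockout mice. The knockout allele was not given in the sources used here. Full-length cDNA libraries were made from each cell with Smart-seq2, and the 334 cells that passed all 3 quality criteria were used, namely 78, 90, 90 and 76 cells in the order just given. Each group had a plate of its own and animals are not named, so a group counts as 1 sample. Plate and the combination of genotype and gate cannot be told apart, and no test between groups was possible.

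Lysosomal hydrolases work in an acidic compartment and take apart the sphingolipids, cholesterol esters, glycosaminoglycans, glycoproteins and proteins that a cell ingests or recycles. Heavily glycosylated membrane proteins line this compartment, and ion channels and exporters in the same membrane carry ions and breakdown products out. In microglia the pathway digests engulfed cells, synapses and myelin, and inherited loss of many of these genes causes storage disease of the nervous system.

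Levels are CPM, a gene's counts per 1000000 gene counts, from counts summed over the cells of a group, and differences are log2 ratios of levels after adding 1 CPM. Folds given for single genes are ratios of the levels without that addition, and for scarce genes can be far larger. Counts of genes at least 2-fold apart use the addition. A cell held 157653 to 1051282 gene counts, and median detected genes were 2607.5, 3162.5, 2184 and 3995 in the wild-type unselected and gated and the knockout unselected and gated groups, an order kept for every set of 4 values. Trem2 itself was at 1115, 1604, 229 and 413 CPM, so the knockout libraries were lower but not at 0. All 9 microglia markers were counted in every group, at summed levels of 46529, 31915, 46503 and 23889 CPM, although 1 knockout unselected cell had no count of any. The lymphocyte genes Cd3e and Cd3d, the monocyte genes Ly6c2 and Ccr2 and the neutrophil genes S100a9 and Ngp were at 0 in all groups. Other genes of these 3 lists were counted, at summed levels of at most 0.668, 5.15 and 3.07 CPM in a group. Single cells reached 33.7, 176 and 175 CPM. Oligodendrocyte lineage, astrocyte, neuron and endothelium lists summed to at most 29.5, 61.7, 4.66 and 28.9 CPM in a group. Single cells reached 1471, 1050, 1181 and 983 CPM. Gene counts per spike-in count also differed, with medians of 24.9, 39.8, 18.1 and 53.7, so every CPM difference is relative to a cell's total.

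Compared per kilobase of exon, Laptm5, Cd68, Psap, Lamp1, Hexa and Grn held the 6 highest member levels in all 4 groups. In wild-type unselected cells these ran from 783 CPM per kb for Grn to 1550.0 for Laptm5, and the next member, Asah1, stood at 228. The lowest were Mcoln3, with no count in that group, and Galc at 0.385 CPM per kb. The same 6 members thus stayed at the top while their order changed, with Laptm5 in place 1 in both unselected groups and 5 in both gated groups. Hpse was the member that moved most in rank, from place 26 in wild-type unselected to 17 in wild-type gated cells and from 29 to 13 in the knockout.

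**Figure D1:**
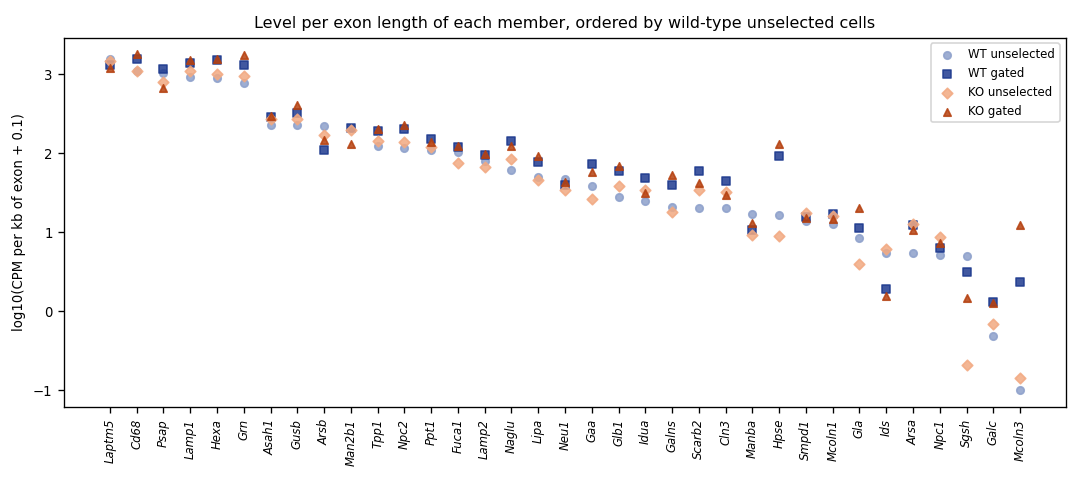
Level per exon length of each of the 35 members, as log10 of CPM per kb of exon plus 0.1, with 1 point for each group and members ordered by wild-type unselected cells. The 6 members at the left lie above all others in every group, and Hpse and Mcoln3 show gated points far above unselected points in both genotypes.

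These genes held a larger share of the counts of gated than of unselected cells in both genotypes. The members' share of a cell's gene counts had medians of 2.54%, 3.21%, 2.68% and 3.41%, with ranges of 1.28% to 4.48%, 1.21% to 5.69%, 0.226% to 4.41% and 1.54% to 4.69%. The ranges overlapped in every comparison. Taking 1 gated and 1 unselected cell, the gated cell had the higher share in 73.2% of all wild-type pairs and 80.2% of knockout pairs, against 52% for knockout over wild type among unselected and 56% among gated cells. Cells of a group share a plate, so these shares describe 4 libraries of cells rather than replicates.

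The number of members with a count was also higher in the gated groups. After thinning every cell to 100000 gene counts, the median cell had 20, 24, 18 and 27 of the 35. This number followed how many genes of any kind a cell had, with Spearman correlations over the cells of a group of 0.85, 0.86, 0.82 and 0.68. The share of counts did not follow it, with correlations of -0.14, 0.18, 0.04 and -0.13. Both measures come from the same library, so the correlations are descriptions.

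**Figure D2:**
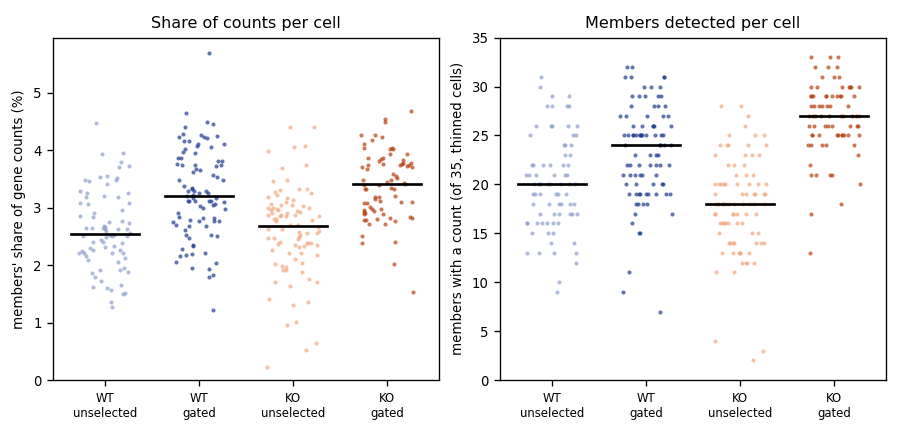
Members' share of gene counts per cell in percent (left) and members with a count per cell after thinning (right), with 1 point for each cell, bars at the group medians. Median shares are 2.54% and 2.68% in unselected and 3.21% and 3.41% in gated cells, and the clouds of points overlap.

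In wild-type cells 8 members were at least 2-fold higher in the gate (22.9% of members, beside 15.2% of the 10554 genes that reached 5 CPM in any group) and 2 were at least 2-fold lower (5.71% beside 19.9%). In knockout cells 7 were higher (20.0% beside 12.4%) and 1 was lower (2.86% beside 22%). These counts depend on the scale and on the cells used. With TMM factors 11 members were higher in each gate (31.4%, beside 18.1% and 16.3% of genes). With spike-in scaling 18 and 33 were (51.4% and 94.3%, beside 24.5% and 50.5%), with 1 and 0 lower. In cells matched on detected genes the excess turned, with 11.4% of members higher in each gate, beside 17.7% and 17.05% of genes. Without cells holding 3 of 10 macrophage markers the shares were 20.0% beside 16.6% in the wild type. In the knockout they were 14.3% beside 14.4%. With all passing cells and CPM, the log2 difference was above 0 for 29 of 35 members in the wild type, beside 43.3% of all genes. In the knockout it was above 0 for 24 of 35, beside 38.4%. The median member difference was 0.54 and 0.52 on the log2 scale, beside -0.12 and -0.26 over all genes. A difference above 0 in both genotypes, whose gate comparisons share no cells, was found for 21 members (60%) and for 21.8% of all genes. This overlap depends on how many were above 0 in each genotype, and agreement beyond that was not tested.

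**Figure D3:**
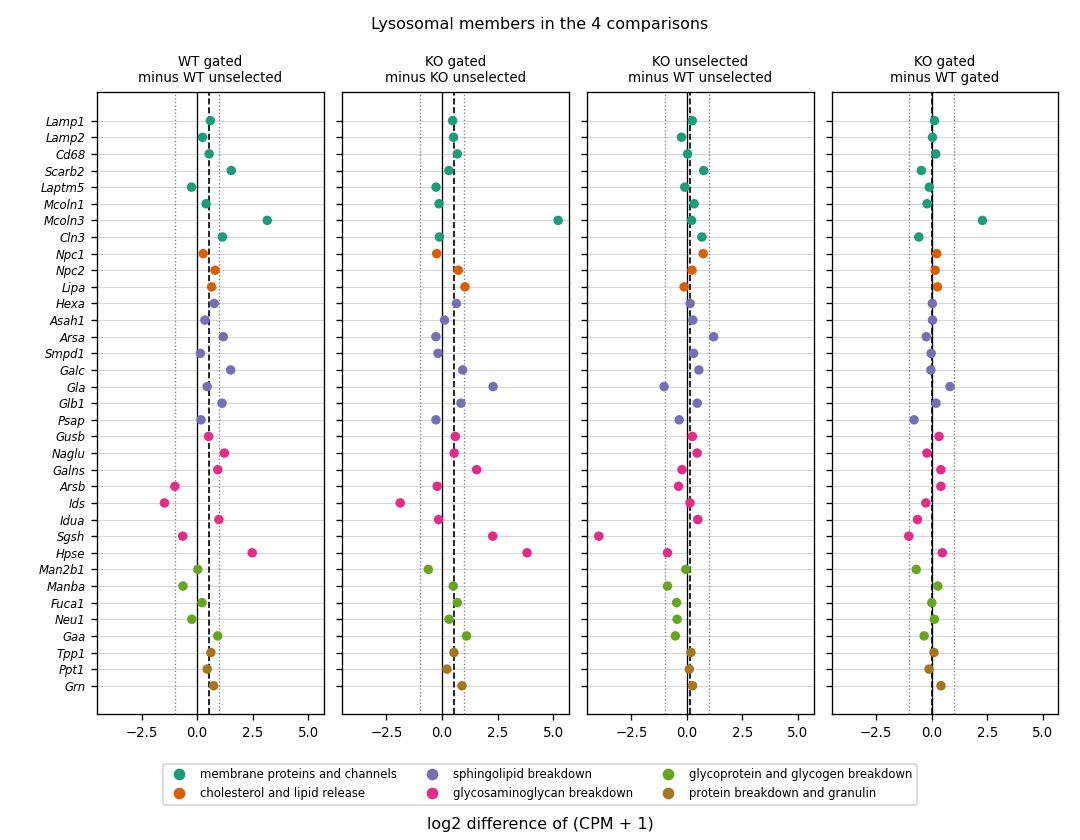
The log2 difference of CPM plus 1 for each member in the 4 comparisons, coloured by role, with dotted lines at 2-fold and a dashed line at the median of the members. Most points of both gate panels lie right of 0, with medians of 0.54 and 0.52, whereas the genotype panels centre near 0.

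Promoter sequence was examined because transcription factors of the TFEB family are known to act on many lysosomal genes through the CLEAR element, whose core is the E-box CACGTG. RefSeq windows from 250 bases before to 50 after the transcription start (GRCm38.p6) were matched for 32 of the 35 members. The letters CACGTG, read on both strands, were present in 9 of the 32 (28.1%), beside 8.09% of all 27025 genes with a window. The longer TCACGTGA was in Cln3, Gla and Mcoln1 (9.38%, beside 1.12% of genes). The full CLEAR palindrome was in Cln3 alone (3.12%, beside 0.370%), and each longer form contains the shorter. The 9 copies nearest to the start are given with the E-box in capitals, because these members share it, and Lamp1 held 4 copies, beginning 61, 45, 28 and 15 bases before its start.
Lamp1 (chr8:13159134-13159163, + strand): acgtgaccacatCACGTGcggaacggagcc
Cln3 (chr7:126583340-126583369, - strand): cacgggtactgtCACGTGacccccaacctg
Mcoln1 (chr8:3500462-3500491, + strand): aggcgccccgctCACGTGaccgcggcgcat
Glb1 (chr9:114401018-114401047, + strand): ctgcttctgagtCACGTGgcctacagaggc
Arsa (chr15:89477423-89477452, - strand): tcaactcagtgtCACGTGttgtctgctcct
Gla (chrX:134601182-134601211, - strand): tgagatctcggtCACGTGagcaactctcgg
Naglu (chr11:101070009-101070038, + strand): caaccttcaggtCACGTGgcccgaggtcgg
Sgsh (chr11:119355522-119355551, - strand): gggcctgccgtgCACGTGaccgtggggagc
Gaa (chr11:119267811-119267840, + strand): tttctgtgcgatCACGTGtttgactctgac

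All 9 of these windows also hold TCACGTG on one strand. These letters were chosen after the sequences had been seen and occur in 4.29% of all genes with a window. In the wild-type gate comparison the members with CACGTG had a median log2 difference of 0.92 and the 23 matched members without it 0.51, with 4 of 9 and 4 of 23 at least 2-fold higher. In the knockout gate comparison the medians were 0.55 and 0.52, with 3 of 9 and 3 of 23 at least 2-fold higher. The PU.1-type ETS letters GAGGAAGT were in the windows of Gla, Gusb and Mcoln3 (9.38%, beside 3.69% of genes). Hpse, the member with the widest gate differences after the scarce Mcoln3, had none of these letters in its window. Its 250 bases upstream (chr5:100719717-100719966, - strand) were chosen for display after its values had been seen.
Hpse: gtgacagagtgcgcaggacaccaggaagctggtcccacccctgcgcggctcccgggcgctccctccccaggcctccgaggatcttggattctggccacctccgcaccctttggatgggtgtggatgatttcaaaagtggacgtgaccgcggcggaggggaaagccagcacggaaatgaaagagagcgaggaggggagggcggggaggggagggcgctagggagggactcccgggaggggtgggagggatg

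Among the 8 membrane proteins and channels, 7 lay above 0 in the wild-type gate and 5 in the knockout gate. Lamp1 (ENSMUSG00000031447.7, chr8:13159161-13175338), the most abundant glycoprotein of the lysosomal membrane, was at 2487 CPM in wild-type unselected cells, with an exact Poisson interval of 2471 to 2502, and at 3749.5, 2941 and 4087 CPM in the other groups. Reads were amplified and carry no molecular identifiers, so all intervals cover counting error only. Lamp1 was thus 1.51-fold higher in the wild-type gate and 1.39-fold higher in the knockout gate, with cell medians of 2184, 3779, 2533 and 3926 CPM and overlapping cells. Lamp2 (chrX:38401357-38456454), needed for autophagosome fusion and chaperone-mediated autophagy, was at 763, 901, 644 and 922 CPM. Cd68 (chr11:69664213-69666153), a macrophage relative of the Lamp proteins, was at 1363, 1976, 1391 and 2237 CPM. Both gated groups lay above both unselected groups for all 3 genes, by less than 2-fold.

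Scarb2 (chr5:92441314-92506833), the receptor that carries glucocerebrosidase to the lysosome, was at 127, 369.5, 216 and 267 CPM. It was 2.91-fold higher in the wild-type gate (counting interval 2.82 to 3.00) and 1.24-fold higher in the knockout gate. It was found in 42.3%, 71.1%, 48.9% and 86.8% of thinned cells, so the knockout gate held more cells with a count but a lower summed level than the wild-type gate. Cln3 (chr7:126571207-126585817), a lysosomal membrane protein mutated in juvenile Batten disease, was at 117, 257, 187 and 172 CPM. It was 2.21-fold higher in the wild-type gate and 0.92-fold in the knockout gate, where the share of thinned cells with a count was nevertheless 48.9% in unselected and 76.3% in gated cells, and 7.65% of its exon bases overlap Apobr on the opposite strand.

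Mcoln3 (chr3:146117450-146141806), a mucolipin cation channel of endolysosomes, was almost confined to gated cells in these libraries. It had 0, 424, 9 and 2132 counts, or 0, 7.89, 0.158 and 42.2 CPM. Thinned cells with a count made up 0 of 78 in the wild-type unselected group, which allows a share of up to 3.85% by 3 counts of the total (Clopper-Pearson limit 4.62%), and 6.67%, 0% and 27.6% in the others. With a floor of 3 counts over the group, it was at least 102-fold higher in the wild-type gate (lower counting limit with the error of both sums 83), where 39.2% of its counts came from 1 cell. It was 267-fold higher in the knockout gate, with a counting interval of 140 to 585 that reflects the 9 counts in unselected cells. After adding 1 CPM the gate differences of Mcoln3 were 3.15 in the wild type and 5.22 in the knockout on the log2 scale. The related channel Mcoln1 was within 2-fold everywhere, at 96.4, 128, 121 and 110.3 CPM. Laptm5, a membrane protein of immune-cell lysosomes, was slightly lower in both gates, at 5871, 4915, 5490.3 and 4551 CPM.

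The 3 genes of cholesterol release were less even. Lipa (chr19:34492318-34527474), the acid lipase that frees cholesterol from its esters, was at 338, 529.7, 309.9 and 634 CPM, 1.57-fold higher in the wild-type gate and 2.05-fold higher in the knockout gate. Its cell medians of 67.7, 417, 46.2 and 566 CPM were further apart than its summed levels, and it was found in 67.9%, 87.8%, 54.4% and 98.7% of thinned cells. Npc2, which hands free cholesterol to the membrane transporter Npc1, was 1.75-fold and 1.66-fold higher in the wild-type and knockout gates. Npc1 itself was at 57.7, 69.7, 96.6 and 81.7 CPM, with gate differences of 0.27 and -0.24 on the log2 scale. By cells with a count Npc1 went the other way in the knockout, found in 25.6% of unselected and 55.3% of gated thinned cells. The gated cell was higher in 68% of knockout cell pairs. Its mean CPM per cell did not turn, with a knockout gate difference of -0.07 on the log2 scale. Thinned knockout cells also differed in median detected genes, at 1950.5 when unselected and 3457 when gated.

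Of the 8 sphingolipid genes, all lay above 0 in the wild-type gate and 5 in the knockout gate. Hexa, the alpha subunit of beta-hexosaminidase that acts on GM2 ganglioside, was at 1788, 3045, 1981 and 3105 CPM, 1.70-fold and 1.57-fold higher in the gates. Glb1 (chr9:114401076-114474898), the beta-galactosidase that acts on GM1 ganglioside, was at 83.1, 181, 115 and 208 CPM, 2.18-fold and 1.81-fold higher. Galc (chr12:98202294-98259459), which removes galactose from the myelin lipid galactosylceramide, was at 5.72, 18.1, 8.77 and 17.6 CPM and was found in 6.41%, 18.9%, 8.89% and 38.2% of thinned cells. It was 3.16-fold and 2.01-fold higher in the gates, but in wild-type unselected cells 56.5% of its counts were in 1 cell. After adding 1 CPM its knockout gate difference was 0.93 on the log2 scale, just short of 2-fold. Hexa and Glb1 thus had gate folds of like size in both genotypes, and Galc was scarce throughout.

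Gla and Arsa behaved unlike each other. Gla (chrX:134588149-134601125), the alpha-galactosidase lacking in Fabry disease, was at 27, 37.2, 12.8 and 66.7 CPM, and thus 1.38-fold higher in the wild-type gate and 5.22-fold higher in the knockout gate (counting interval 4.81 to 5.66). It was found in 7.69%, 18.9%, 4.44% and 46.1% of thinned cells, with Clopper-Pearson intervals of 1.22% to 11% for knockout unselected and 34.5% to 57.9% for knockout gated cells. In the unselected groups 38.3% and 40.4% of its counts were in 1 cell, and without the highest cell of each group its knockout gate difference was 2.83 in place of 2.30 on the log2 scale. Arsa (chr15:89472476-89477425), the arylsulfatase that acts on sulfatide, was at 19.8, 45.8, 46.9 and 38.5 CPM, 2.32-fold higher in the wild-type gate and 0.821-fold in the knockout gate, although 21.1% of unselected and 36.8% of gated thinned knockout cells had a count. Its wild-type unselected level was the low one, with 30.5% of counts in 1 cell, and 18.8% of its exon bases overlap a gene on the opposite strand. Psap, the precursor of the saposin activators, was at 2815, 3171, 2216 and 1831 CPM, with gate differences of 0.17 and -0.28. Asah1 and Smpd1, the acid ceramidase and acid sphingomyelinase, stayed within 1.27-fold in both gates.

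The glycosaminoglycan genes held the widest gate differences after Mcoln3 and both members that were at least 2-fold lower in a gate. Hpse (ENSMUSG00000035273.14, chr5:100679484-100719716), the endoglycosidase that cuts heparan sulfate chains, was at 58.1, 328, 31.2 and 456 CPM. It was 5.64-fold higher in the wild-type gate (counting interval 5.39 to 5.89) and 14.6-fold higher in the knockout gate (13.9 to 15.3). Its cell medians were 0, 67.9, 0 and 376 CPM, and it was found in 25.6%, 61.1%, 16.7% and 90.8% of thinned cells. In the knockout, the gated cell had the higher level in 92.8% of cell pairs. Unselected cells with a high level existed too, since the highest reached 2212 CPM in the wild type and 736 CPM in the knockout.

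Enzymes that act on heparan sulfate after that cut did not move as 1 block. Naglu (chr11:101070012-101077672), the N-acetylglucosaminidase, was at 163, 382, 225 and 329 CPM, 2.34-fold and 1.46-fold higher in the gates. Idua, the iduronidase, was at 103, 203, 145 and 130.0 CPM, just under the 2-fold line in the wild type at 1.97-fold and at 0.896-fold in the knockout. By cell pairs it was higher in both gates, with the gated cell above the unselected in 66.1% of wild-type and 66% of knockout pairs. Mean CPM per cell of Idua was still slightly lower in the knockout gate, at -0.07 on the log2 scale. Ids (chrX:70343069-70365084), the iduronate sulfatase, was lower in both gates, at 27.7, 9.32, 30.6 and 7.59 CPM, or 2.97-fold and 4.04-fold lower. Its share of thinned cells, at 20.5%, 13.3%, 17.8% and 22.4%, was lower in the wild-type gate but higher in the knockout gate. The gated cell had the higher Ids level in 46.7% of wild-type and 57.9% of knockout pairs. In wild-type unselected cells 45.3% of its counts were in 1 cell. Sgsh (chr11:119343425-119355536), the heparan N-sulfatase, was rare at 22, 13.7, 0.474 and 6.16 CPM, and all 27 of its knockout unselected counts came from 1 cell. Its 13.0-fold knockout gate difference, 2.28 on the log2 scale, thus sets that cell against 311 gated counts, 48.9% of them in 1 cell. Sgsh was found in 13.2% of knockout gated cells before thinning and 10.5% after it. Without cells holding 3 of 10 macrophage markers its knockout gate difference turned to -0.66 on the log2 scale. Of its exon bases, 21.6% overlap Card14 on the opposite strand.

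Galns and Gusb were higher in both gates. Galns (chr8:122578242-122611463), the galactosamine 6-sulfatase, was at 54.9, 105, 47 and 140.0 CPM, 1.92-fold and 2.98-fold higher, but in cells matched on detected genes its knockout gate difference was 0.29 on the log2 scale. Gusb, the beta-glucuronidase, was at 1034, 1475, 1225 and 1852 CPM, 1.43-fold and 1.51-fold higher. Arsb (chr13:93771630-93943016), the sulfatase of dermatan and chondroitin sulfate, went the other way in the wild type. It was at 1334, 664, 1029 and 885 CPM, 2.01-fold lower in the wild-type gate and 1.16-fold lower in the knockout gate, and it stayed beyond 2-fold in the wild type in 9 of 15 alternative treatments of the data. The wild-type gated cell had the higher Arsb level in only 28.1% of cell pairs, the lowest share among members. On the opposite strand Gm26527 overlaps 32.3% of its exon bases, and the strand setting of the counting was not given.

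**Figure D4:**
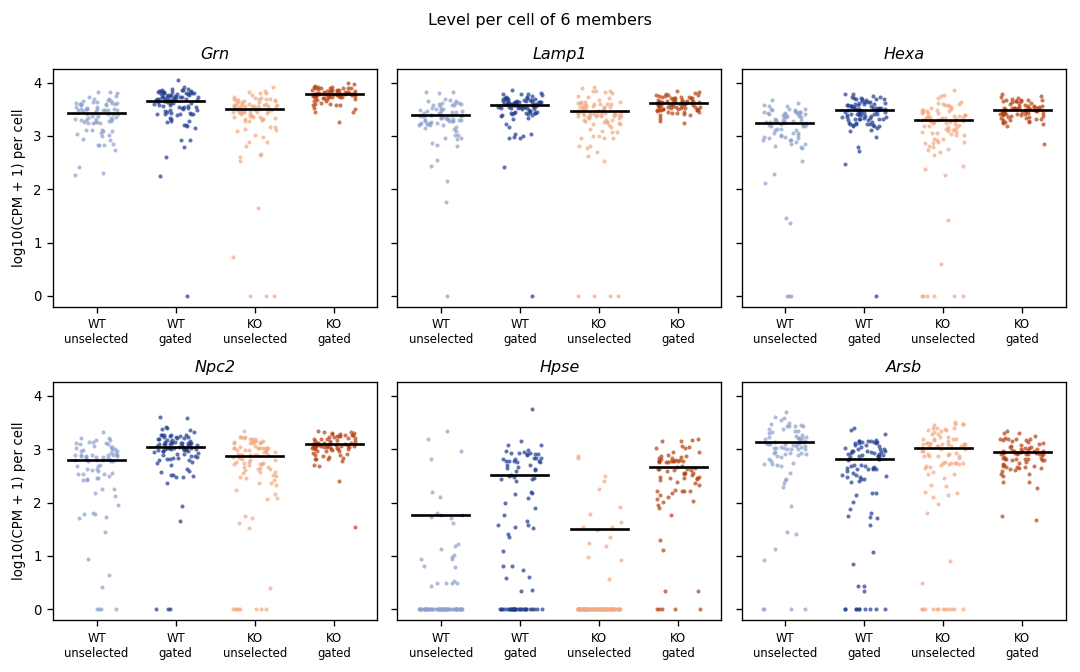
Level per cell of Grn, Lamp1, Hexa, Npc2, Hpse and Arsb as log10 of CPM plus 1, with 1 point for each cell and bars at the level from summed counts. The 6 genes were chosen after their values were seen; Hpse is at 0 in most unselected cells and has a median of 376 CPM in knockout gated cells, and Arsb is lowest in wild-type gated cells.

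The 5 genes of glycoprotein and glycogen breakdown were closest to the all-gene median in the wild type, with a median gate difference of 0.03, and had a median of 0.50 in the knockout. Gaa (chr11:119267887-119285454), the acid alpha-glucosidase that degrades glycogen, was at 182, 346, 127 and 273 CPM, 1.90-fold and 2.15-fold higher in the gates. Man2b1, the lysosomal alpha-mannosidase, was at 1652, 1682, 1595 and 1039 CPM and so was lowest in knockout gated cells. Manba and Neu1, the beta-mannosidase and the sialidase, lay below 0 in the wild-type gate (-0.64 and -0.24) and above 0 in the knockout gate (0.50 and 0.32). By mean CPM per cell the knockout gate difference of Neu1 was -0.05, although the gated cell was higher in 67.9% of knockout pairs. Fuca1, the fucosidase, lay above 0 in both gates.

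All 3 genes grouped under protein breakdown lay above 0 in both gates. Grn (chr11:102430315-102437048), which encodes progranulin, the precursor of lysosomal granulins, was at 2722, 4542, 3255 and 6065 CPM, 1.67-fold and 1.86-fold higher. The knockout gated cell had the higher Grn level in 90.0% of cell pairs, the second-highest share among members after Hpse, although the fold was below 2. Lowest cells were at 186, 0, 0 and 1838 CPM, so no knockout gated cell was near 0. Tpp1, the tripeptidyl peptidase, was 1.53-fold and 1.45-fold higher, and Ppt1, the palmitoyl-protein thioesterase, 1.37-fold and 1.17-fold higher.

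Between genotypes few members were at least 2-fold apart. In unselected cells 3 members were so in either direction (8.57%, beside 29.8% of all genes), and in gated cells 2 were (5.71%, beside 23.5%). With a minimum of 20 CPM the all-gene shares were smaller. In unselected cells 12.2% of genes were higher and 9.63% lower in the knockout, beside 2.94% and 5.88% of members. In gated cells they were 7.76% and 8.83%, beside 2.94% each. The part of abundance in these shares was not tested. The difference was above 0 for 21 of 35 members in unselected cells, beside 52.9% of all genes, and for 20 of 35 in gated cells, beside 49.2%. The median member difference was 0.15 and 0.03, beside 0.05 and 0 over all genes. Scaled to spike-in RNA instead of gene counts, the medians were -0.33 and 0.41, beside -0.38 and 0.35 over all genes, so the direction for unselected cells depends on the scale. Without cells holding 3 of 10 macrophage markers both turned, to -0.0148 and -0.0937. These comparisons use the same 4 groups as the gate comparisons.

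The members beyond 2-fold were mostly scarce. In unselected cells Arsa was 2.37-fold higher in the knockout, Gla 2.11-fold lower and Sgsh 46.4-fold lower. After adding 1 CPM the Sgsh difference was -3.96 on the log2 scale. In gated cells Mcoln3 was 5.35-fold higher in the knockout (counting interval 4.82 to 5.96) and Sgsh 2.22-fold lower. Among abundant members, Psap was 1.73-fold and Man2b1 1.62-fold lower in knockout gated than in wild-type gated cells, and the knockout cell had the higher Psap level in 21.3% of cell pairs. Grn was 1.34-fold higher, in 73.7% of cell pairs. Other abundant members lay nearer to an even split of cell pairs, such as Lamp2 at 52.2%, Hexa at 55.3% and Lamp1 at 56.9%.

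Knockout minus wild-type gate differences went both ways, with a median of -0.08, beside -0.09 over all genes. Their median absolute size was 0.47 log2 units, beside 0.77 over all genes, and so was close to the median gate difference itself. It was over 1 for 9 of 35 members (25.7%), beside 40.7% of all genes. Arsa (-1.45), Cln3 (-1.25), Scarb2 (-1.22) and Idua (-1.13) had the lower gate difference in the knockout by over 1 log2 unit, and Manba (1.15), Hpse (1.35), Gla (1.85), Mcoln3 (2.07) and Sgsh (2.93) had the higher. With 1 sample per group these differences were not tested.

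**Figure D5:**
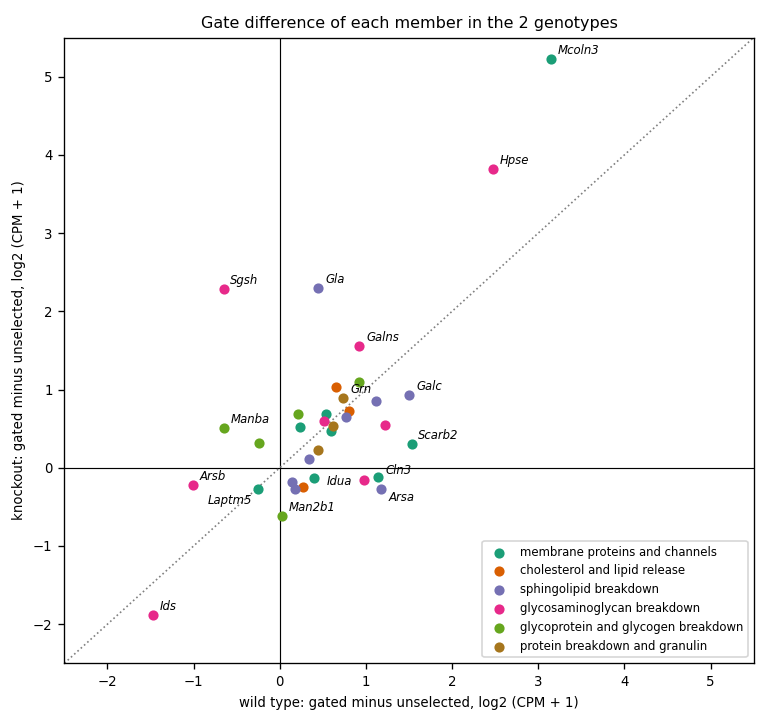
Gate difference of each member on the log2 scale of CPM plus 1 in the wild type (horizontal) and the knockout (vertical), coloured by role, with the diagonal dotted and names added after the values were seen. Most members, 21 of 35, lie in the upper right quadrant, with Hpse and Mcoln3 far from the rest and Ids in the lower left.

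Within a group the abundant members varied together only weakly from cell to cell. Over the 13 members found in at least 80% of thinned cells of every group, a limit chosen after the values were seen, the median Spearman correlation of 78 gene pairs was 0.14, 0.17, 0.16 and 0.16. The pair with the highest minimum over the groups was Grn and Lamp1, at 0.38, 0.59, 0.47 and 0.32. Grn and Psap followed, at 0.41, 0.30, 0.25 and 0.43. Each value is over the cells of 1 plate, whose levels share a total, and none describes shared control.

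Other lysosomal genes, listed beside the members and without cathepsins or proton pump, gave 47 measured genes including the sort gene Gpnmb. In the wild-type gate 9 were at least 2-fold higher and 3 lower, and in the knockout gate 7 and 2. Their shares higher, 19.1% and 14.9%, were near the 15.2% and 12.4% of all genes. Their shares lower, 6.38% and 4.26%, were below the 19.9% and 22% of all genes. The log2 difference was above 0 for 57.4% and 59.6% of them, beside 43.3% and 38.4% of all genes. Their medians of 0.13 and 0.10 were below those of the members but above the all-gene -0.12 and -0.26. Leaving out Gpnmb, used for sorting, 8 and 6 were higher. Acp5, the tartrate-resistant acid phosphatase, had no count in either unselected group and was at 18.8 and 16.7 CPM in the gated groups. Cd63, a tetraspanin of late endosomes, was 2.08-fold and 2.67-fold higher. Naaa, the acid amidase of N-acylethanolamines, was 2.78-fold and 2.81-fold lower, and Cd164, the sialomucin endolyn, 2.38-fold and 2.35-fold lower. The mucolipin Mcoln2 was at 9.42, 30.0, 0.0176 (1 count) and 5.6 CPM, so like Mcoln3 it was higher in both gates, but it was lower in the knockout of each gate.

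Markers of border-associated macrophages, another macrophage type of the brain, moved with the gate. Of 10 such markers 9 were at least 2-fold higher in each gate, at summed levels of 846, 2040, 902 and 2095 CPM, with Cd163, Lyve1 and F13a1 at 0 in wild-type unselected and F13a1 at 0 in knockout unselected cells. Summed levels per cell ran up to 3558, 16335, 5687 and 18912 CPM. Cells with at least 2 of Pf4, Cd163, Lyve1, F13a1 and Cbr2, a criterion added after seeing the data, numbered 0, 9, 1 and 6, and without them the members' median gate differences were 0.60 and 0.53. Cells with at least 3 of the 10 markers numbered 10, 37, 15 and 59, and without them the medians were 0.55 in the wild type and 0.29 in the knockout, where 17 gated cells remained. In cells matched on detected genes, 56 for each wild-type and 30 for each knockout group in 1 random draw, the medians were 0.41 and 0.48. The part of the more widespread markers in the results was otherwise not tested.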

How the data were processed

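Raw read counts for 369 microglia and 92 spike-in RNAs were deposited by the authors in 1 table. Reads were handled with HTSeq, Picard, STAR 2.5.3a and Trim Galore 0.4.3 on mm10, per the submitters' processing notes. The annotation and strand setting were not given in the sources used here. Members and lists were chosen with earlier results of these data known.

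Groups and quality calls came from the labels, 334 passing cells were used, and no doublets were called. Counts were summed by group without spike-ins (3.56% of counts) and divided by gene totals of 38971356 to 56902287. A gene counted as higher or lower when (CPM + 1) differed at least 2-fold, and mean CPM per cell went the same way, and as measured at 5 CPM in any group. Sums have exact Poisson and shares Clopper-Pearson intervals (95%). Members past 2-fold in any comparison, plus Lamp1, Lamp2 and Cd68, were to be described in full; levels of the others named were added after their values were seen. Coordinates are GENCODE M21 (GRCm38). Python 3.11.15, numpy 2.4.6, pandas 2.3.3, scipy 1.17.1 and edgeR 4.0.16 (TMM factors only) were used. The calls were tested on simulated cells with Poisson counts from 1 common profile. These lacked plate effects and cell-to-cell variation beyond the total, so false calls from those sources were not covered. The alternatives were other scalings, pseudocounts, minima and cell selections.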

Additional observations from a re-analysis of the deposited data

Results flagged for a closer look

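For 3 members the gate difference had opposite directions in the 2 genotypes and reached 2-fold in 1 of them, a limit chosen after the values were seen. Knockout minus wild type, on the log2 scale, it was -1.45 for Arsa and -1.25 for Cln3, which were higher in the wild-type gate by summed counts, and 2.93 for Sgsh, which was higher in the knockout gate. The genotype difference, gated minus unselected, was opposite in the same sense for Gla, at 1.85, and for Arsa, at -1.45. By cell pairs the knockout gate went the same way as the wild type for Arsa and Cln3. The gated cell was higher in 61.8% and 59.2% of knockout pairs and in 54.4% and 63.7% of wild-type pairs. By mean CPM per cell both were lower in the knockout gate, at -0.47 and -0.32 on the log2 scale. Thinned knockout cells had median detected genes of 1950.5 when unselected and 3457 when gated. The part of this in the pair shares was not tested. With 1 sample per group none of these differences was tested.

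Cells that failed a quality criterion but held at least 100000 gene counts entered no comparison. The members' share of their counts had a median of 2.08% in 7 wild-type unselected cells, 2.98% in 2 wild-type gated cells, 2.69% in 2 knockout unselected cells and 2.93% in 4 knockout gated cells, against 2.54%, 3.21%, 2.68% and 3.41% in passing cells.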

How the results depend on the processing

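Members' counts and medians and the members beyond 2-fold were recomputed under 15 alternatives (14 for Galc), 2 of them added after seeing the data; shares per cell, cell pairs, correlations, promoter groups, other lysosomal genes and differences of gate differences were not. Of 344 values of single members beyond 2-fold, 137 stayed within their counting interval and 206 moved outside it in the same direction. The reversal was Sgsh in the knockout gate, at -0.66 without cells holding 3 of 10 macrophage markers. Hpse in both gates, Scarb2 in the wild-type gate, Gla and Mcoln3 in the knockout gate and Sgsh between unselected groups stayed beyond 2-fold in all 15, and the others in 9 to 14. In cells matched on detected genes Galns in the knockout gate was at 0.29 and Arsa in the wild-type gate at 0.38.

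Counts that moved little are left out, from 7 to 11 higher in the wild-type gate, 5 to 10 higher in the knockout gate and 2 to 3 lower between unselected groups. The other values that moved follow, for the wild-type gate, the knockout gate, knockout against wild type unselected and knockout against wild type gated in this order where 4 are given. Mean CPM per cell gave medians of 0.51 (wild-type gate), 0.11 (unselected) and 0.0919 (gated genotypes). Thinned cells gave 0.49, 0.067 and 0.0819 for the same, with 0 members lower in the knockout gated group. TMM factors gave medians of 0.71, 0.79, 0.0956 and 0.0752, with 1 lower in the wild-type gate and 11 higher in the knockout gate. Median-of-ratios factors gave 0.69, 0.76, 0.0836 and 0.0641, with 1 lower in the wild-type gate. Spike-in scaling gave medians of 1.00, 1.85, -0.33 and 0.41, with 18, 33, 0 and 2 members higher and 1, 0, 5 and 0 lower, while all-gene medians moved to 0.32, 1.01, -0.38 and 0.35. A pseudocount of 10 CPM gave 5 higher and 0 lower in the wild-type gate, 0 higher, 1 lower and a median of 0.11 between unselected groups and 0 lower between gated groups, and 0.1 CPM gave 2 higher between unselected groups. Matched cells gave medians of 0.41, 0.48 and 0.13 for the first 3 comparisons, with 4, 4 and 3 members higher, 0 lower in the knockout gate, 1 lower between unselected and 0 lower between gated groups. In these matched cells the share of members higher was 11.4% in each gate, below the 17.7% and 17.05% of all genes. Without cells holding 3 of 10 macrophage markers 4, 2 and 4 members were lower in the gates and between gated groups, 0 were higher between gated groups, and medians were 0.29 (knockout gate), -0.0148 (unselected) and -0.0937 (gated). Without cells holding 2 of 5 markers the wild-type gate median was 0.60 and 0 members were lower between gated groups. Without each gene's highest cell medians were 0.61, 0.58, 0.13 and 0.0568, with 1 lower in the wild-type gate and 2 higher between unselected groups. All cells with 100000 counts gave 1 lower in the wild-type gate and 1 lower between unselected groups.

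Members below about 30 CPM rest on few cells, and so do some above it. Smpd1, at 46.6 CPM in wild-type unselected cells, was found in 11.5% of them after thinning, with 30.3% of counts in 1 cell. Manba, at 63.8 CPM in knockout unselected cells, was found in 17.8%, with 27.1% of counts in 1 cell. No setting replaces the absent replicates.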
